A study of Mus musculus with 6 samples.

Results

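The taste receptor genes (Tas1r and Tas2r) and the trace amine-associated receptor genes (Taar) were followed in the cerebral cortex of young and old adult mice. Members were all genes in the deposited files whose symbol is Tas1r, Tas2r or Taar followed by a digit, whatever their values, and they numbered 59 of 55421 genes, with 3 Tas1r, 40 Tas2r and 16 Taar genes. RNA-seq was performed on the microdissected cortex from young mice (6 months; mice 10, 11 and 17) and old mice (24 months; mice 2, 4 and 5), with n = 3 per age, and the comparison asks which of these genes differ in mRNA level with age. All 6 were WT C57BL/6J males on a standard diet that were anesthetized with isoflurane before cervical dislocation, and animals with visible tumors were left out by the authors. Libraries were made from 10 ng of total RNA with a low-input kit and read from 1 end over 75 bases. No source names a litter, a date or a batch for these mice.

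Tas1r genes encode the receptors of sweet and umami taste, in which TAS1R3 pairs with TAS1R2 or TAS1R1. Tas2r genes encode bitter taste receptors, and in taste cells both kinds signal through the G protein gustducin, phospholipase C beta, an inositol trisphosphate receptor and the cation channel TRPM5. Taar genes encode receptors for volatile and trace amines that are mostly used as odorant receptors by olfactory sensory neurons, where they signal through the olfactory G protein and adenylyl cyclase, whereas TAAR1 is a brain receptor for trace amines that modulates monoamine neurons.

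Among the members, 53 were annotated as protein-coding and 6 as pseudogenes (5 Tas2r and Taar7c-ps). A single exon of 882 to 1158 bases made up 55 of them, and the exceptions were the Tas1r genes, with 6 exonic parts each, and Taar2. In the GRCm38 build (GENCODE vM21 annotation) the Tas1r genes lie on chromosome 4 and the Taar genes in 1 array on chromosome 10, from 23920356 to 24109534. Apart from Tas2r134 on chromosome 2, Tas2r119 on chromosome 15 and the isolated Tas2r118, the Tas2r genes lie in 3 arrays on chromosome 6. These are called here the proximal array (8 genes, 40491233 to 42435464), the middle array (6 genes, 131629823 to 131690063) and the distal array (23 genes, 132656953 to 133096015).

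Promoter sequences, 250 bases before to 50 bases after the annotated start, were found in RefSeq (GRCm38.p6) for 45 of the 59 members. In some of these, such as Tas2r126 and Taar7d, the annotated start is the ATG of the coding sequence. Such windows hold the bases just before the coding sequence and may miss the promoter, which limits the comparison with all promoters. These promoters were poor in CG dinucleotides, with a median of 1, against 7 over 32851 mouse promoters. At most 4 CG were present in 39 of the 45 (86.7%), and in 38.0% of all promoters. All 31 Tas2r promoters were in this class, and the 3 Tas1r promoters, with 5 to 8 CG, were not. The letters TATAAA, on either strand, occurred in 16 of the 45 (35.6%) and in 13.6% of all promoters. The octamer ATGCAAAT, the sequence bound by POU-domain factors, occurred on either strand in 7 of 31 Tas2r promoters (22.6%) and in 1.74% of all. It was found in 5 of 8 promoters of the proximal array, 1 of 6 of the middle array and 0 of 14 of the distal array. The E-box CAGCTG occurred in 13.3% of the members' promoters and 16.3% of all. In each of the 4 promoters below either the octamer or CG is marked. In those of Tas2r126 (chr6:42434285-42434584, plus strand) and Tas2r137 (chr6:40490988-40491287, plus strand) the capitals mark the octamer on the opposite strand, and in those of Tas1r1 (chr4:152038441-152038740, minus strand) and Tas1r3 (chr4:155863304-155863603, minus strand) they mark CG. A match of letters is a description and not a measured binding site.
Tas2r126: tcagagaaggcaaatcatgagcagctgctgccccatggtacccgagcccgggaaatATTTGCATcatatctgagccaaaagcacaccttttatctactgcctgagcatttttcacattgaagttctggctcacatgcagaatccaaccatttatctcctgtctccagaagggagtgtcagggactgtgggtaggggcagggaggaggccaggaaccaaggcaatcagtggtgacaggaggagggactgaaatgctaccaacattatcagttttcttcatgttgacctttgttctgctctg
Tas2r137: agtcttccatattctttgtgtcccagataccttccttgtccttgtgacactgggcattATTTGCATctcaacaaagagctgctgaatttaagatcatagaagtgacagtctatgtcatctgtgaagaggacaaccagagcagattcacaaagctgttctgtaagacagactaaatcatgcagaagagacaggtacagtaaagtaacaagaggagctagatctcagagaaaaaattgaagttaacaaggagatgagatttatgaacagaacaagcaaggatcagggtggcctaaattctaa
Tas1r1: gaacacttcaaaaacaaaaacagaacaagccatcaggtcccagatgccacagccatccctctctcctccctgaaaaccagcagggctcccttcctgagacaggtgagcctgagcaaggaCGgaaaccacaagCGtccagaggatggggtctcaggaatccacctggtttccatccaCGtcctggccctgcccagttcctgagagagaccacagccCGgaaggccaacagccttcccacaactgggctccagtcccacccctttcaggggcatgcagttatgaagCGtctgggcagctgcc
Tas1r3: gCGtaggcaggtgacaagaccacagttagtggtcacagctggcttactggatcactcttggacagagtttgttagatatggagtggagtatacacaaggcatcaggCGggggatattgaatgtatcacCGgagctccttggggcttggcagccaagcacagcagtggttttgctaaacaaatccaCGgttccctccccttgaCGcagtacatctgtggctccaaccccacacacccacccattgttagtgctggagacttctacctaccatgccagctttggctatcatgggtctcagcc

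The libraries held 29495379 to 36494240 counts. Old libraries were smaller but covered more genes, with reads on 40208 to 43561 genes, whereas young ones had reads on 33974 to 35651. Of 32905 genes tested with edgeR's quasi-likelihood test (TMM scaling, 10 or more counts summed over all 6 mice), 0 passed a 1% FDR, 17.6% were higher at 24 months at an unadjusted p under 0.05 and 13.1% were lower. Among the 14906 of them with 10 to 100 counts in total, the class that holds every tested member, 31.3% were higher at that p and 0.302% lower, and the median log2 fold change (24 against 6 months) was 1.05 against 0.15 over all genes tested. These values are the background for the counts of receptor genes given here.

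The receptor genes had few counts in either age. The highest count in any library was 23, and 33 of the 59 members never exceeded 3 counts. The mean TPM over the 6 mice was 0.595 for Tas1r1, the highest, and its median over members was 0.140, where 1 count on Taar1 in mouse 11 corresponds to 0.0920 TPM. At least 1 count was present on 21, 24 and 26 members in the 6-month mice 10, 11 and 17 and on 50, 52 and 42 members in the 24-month mice 2, 4 and 5. Every 24-month cortex thus had reads on more receptor genes than any 6-month cortex. Over the 3 mice of an age, 43 members were seen at 6 months and 58 at 24 months. Tas2r118 had 0 counts in all 6 libraries, which allows up to 0.0867 to 0.0973 CPM per library. These limits and the intervals given here cover counting error only. In bulk tissue a change in the number of cells of a type and a change in RNA per cell cannot be told apart.

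**Figure D1:**
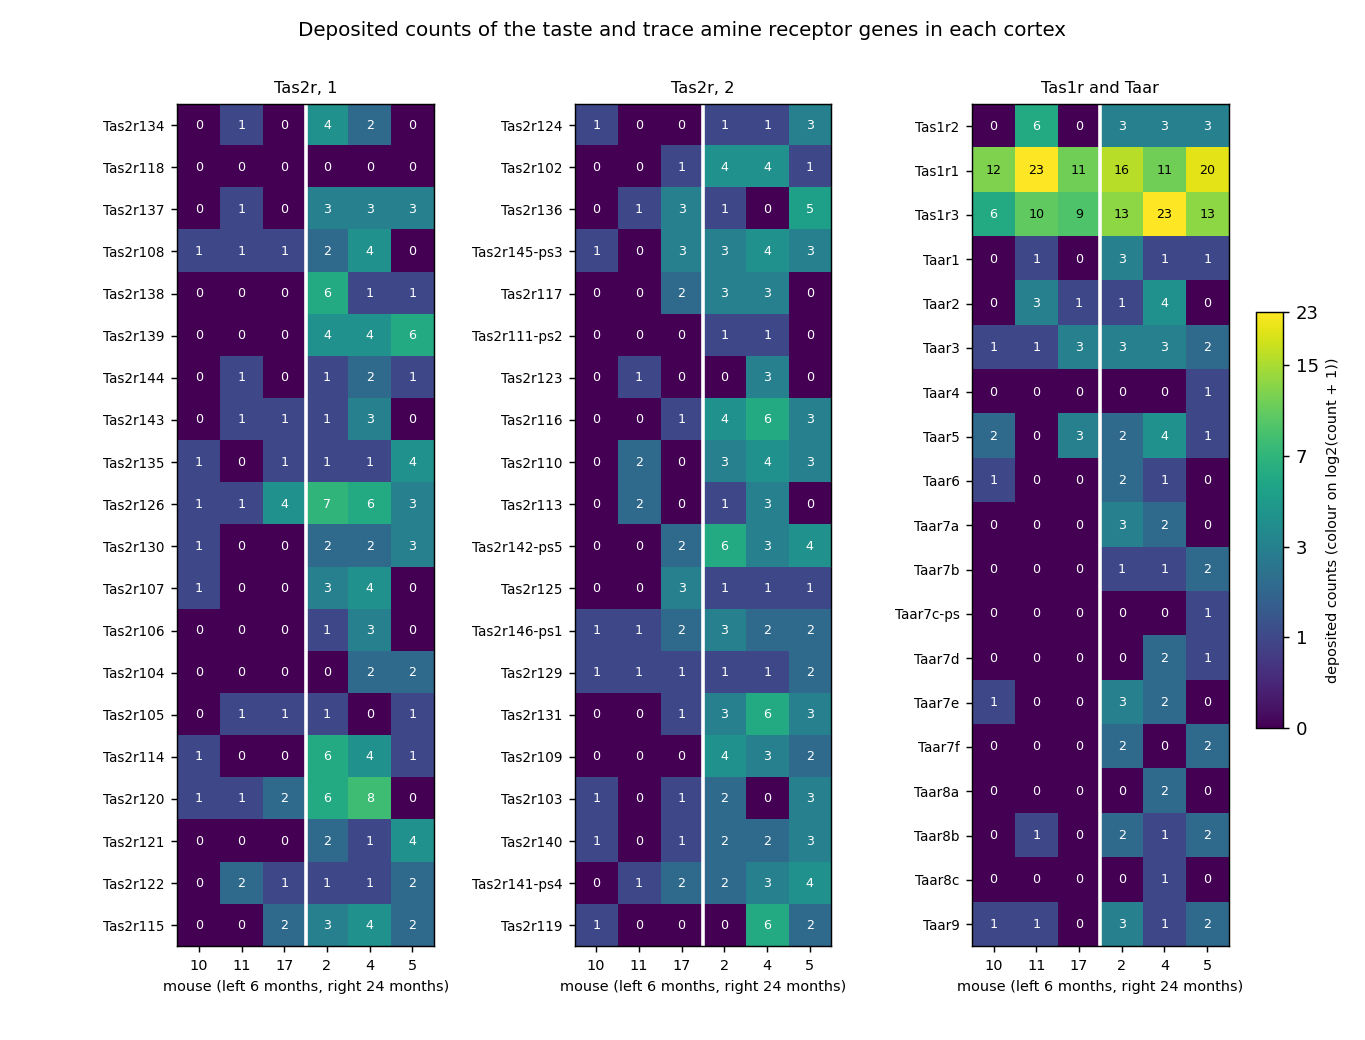
Deposited counts of the 59 receptor genes (rows) in each cortex (columns, 6-month mice left and 24-month mice right of the white line), with color on a log2(count + 1) scale. Most cells on the left are 0 or 1, and only Tas1r1 and Tas1r3 reach 23 counts.

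Summed over the 3 mice of an age, counts were higher at 24 months in 56 members, equal in 3 and lower in 0. As TMM-scaled CPM, the pooled level was higher in 55 of the 58 members with a count. The same was true of 64.8% of all genes with a count and of 81.7% of those with 1 to 100 counts. All 3 old mice were above all 3 young mice in 15 of the 58, against 16.8% of all genes with a count and 22% of those with 1 to 100 counts, and the reverse order was found in 0 members (11% and 0.693%). In 16 members all 3 young mice were at 0, and 15 of these had counts at 24 months; 0 counts in every 6-month mouse was found in 14.4% of all genes with a count and 22.7% of those with 1 to 100.

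The test could be applied to 20 members (3 Tas1r, 15 Tas2r and 2 Taar). Only 2 of these, Tas1r1 and Tas1r3, reached 10 counts at 6 months alone, so that 18 entered the test through their counts at 24 months and their direction is not independent of the filter. With edgeR's quasi-likelihood test 0 receptor genes passed the 1% FDR. At an unadjusted p under 0.05, 8 were higher at 24 months (17.6% of all genes tested and 31.3% of those with 10 to 100 counts) and 0 lower (13.1% and 0.302%). At 10% FDR 3 were higher (10% of all genes tested and 17.6% of those with 10 to 100 counts) and 0 lower (8.33% and 0.0671%). The fitted value was higher at 24 months in 19, as in 58.4% of all genes tested and 86% of those with 10 to 100 counts. All 3 old mice were above all 3 young mice in 8 of the 20, compared with 20% of all genes tested and 34.7% of those with 10 to 100 counts, and below them in 0 (16.3% and 1.05%). The count of 8 at an unadjusted p under 0.05 was 2 without the 24-month mouse 4, 4 without mouse 2 or mouse 10 and 5 without mouse 11. The count of 8 above all young mice was 3 without mouse 4 and 5 without mouse 2. Fewer members reached 10 counts in most of these fits, and the shares of all genes with a mouse left out are not given here. The members tested were 10 without mouse 4, 12 without mouse 2, 17 without mouse 11 and 20 without mouse 10. The likelihood ratio test and the exact test of edgeR each placed 1 member, Tas2r139, past the 1% FDR. The share of all tested genes higher at that FDR was 4.41% with the likelihood ratio test and 2.84% with the exact test. DESeq2, with 0.579% of genes higher at 1% FDR, placed 0 there and 4 at an unadjusted p under 0.05, with no adjusted p for 18 of the 20. The share of all genes at that unadjusted p with DESeq2 is not given here.

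Of the sweet and umami receptor genes, Tas1r1 (umami, chr4:152027914-152038568, minus strand) had 12, 23 and 11 counts in young mice and 16, 11 and 20 in old mice. The ages overlapped fully, with 0.571 ± 0.221 TPM in young mice and 0.620 ± 0.182 TPM in old mice (SD, n = 3 each). Its log2 fold change was -0.00 (SE 0.37, adjusted p = 0.996 with edgeR's quasi-likelihood test), and it had the only negative fitted value among the tested members. That sign is not stable, since scaling by library totals gave 0.18 and leaving out the 6-month mouse 11 gave 0.40.

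Tas1r3, the subunit shared by the sweet and the umami receptor (chr4:155859268-155863362, minus strand), had 6, 10 and 9 counts in young mice and 13, 23 and 13 in old mice. All 3 old mice were above the young ones, and its TPM was 0.253 ± 0.0525 in young mice and 0.521 ± 0.171 in old mice (SD, n = 3 each). The log2 fold change of 0.92 (SE 0.38) did not pass the correction with edgeR's quasi-likelihood test (adjusted p = 0.138). Its exons share 36 bases with those of Dvl1 on the opposite strand, a gene with 390 to 429 counts at 6 months and 452 to 602 at 24 months. No strand option is stated for the counting, and whether Dvl1 reads contribute was not tested.

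Tas1r2, the sweet receptor's other subunit, had 0, 6 and 0 counts at 6 months and 3 counts in each 24-month mouse. The 6 counts of mouse 11 exceeded all others, so the ages overlapped (log2 fold change 0.53, SE 1.04, adjusted p = 0.756 with edgeR's quasi-likelihood test). A shared stretch of 1510 exonic bases links it to Gm21969 on the same strand, which had 0 to 3 counts per library. Summed, the Tas1r genes had 18, 39 and 20 counts in young mice and 32, 37 and 36 in old mice. Their level was 0.0821 ± 0.0326 CPM per exonic kb in young mice and 0.110 ± 0.00479 in old mice (SD, n = 3 each), a ratio of 1.34 (95% interval for counting error 0.977 to 1.80). The highest value of all 6 libraries was that of the 6-month mouse 11, at 0.120 CPM per exonic kb.

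The bitter receptor genes were lower in level, and their sums did not overlap between the ages. Summed over 40 genes, the counts were 14, 19 and 36 in young mice and 99, 111 and 77 in old mice. Every old cortex was above every young one, and mouse 17 was the highest of the young and mouse 5 the lowest of the old. The level was 0.0181 ± 0.00896 CPM per exonic kb in young mice and 0.0732 ± 0.0130 in old mice (SD, n = 3 each), a ratio of 4.05 (3.09 to 5.33). As with the other sums, this is a description and was not tested.

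Tas2r139 (chr6:42140936-42141895, plus strand, proximal array) had the smallest p of the receptor genes. No count was found on it in the 3 young mice, and the old mice had 4, 4 and 6 counts, or 0.489, 0.458 and 0.699 TPM. With the floor of 3 counts in place of 0 for the young group, the pooled level was 4.53-fold higher at 24 months. That value leaves out the counting error of the 14 old counts and is not a lower bound. The adjusted p of Tas2r139 was 0.0553 with edgeR's quasi-likelihood test, 0.00108 with the likelihood ratio test and 0.00564 with the exact test.

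Tas2r116 (chr6:132855438-132856355, plus strand, distal array) had 0, 0 and 1 counts in young mice and 4, 6 and 3 in old mice. The pooled ratio was 12.6 with a counting interval of 1.90 to 536 (adjusted p = 0.0712 with edgeR's quasi-likelihood test). Tas2r131 (chr6:132956884-132957919, minus strand, distal array) was much alike, with 0, 0 and 1 counts and 3, 6 and 3 counts. Its ratio was 11.6 (1.72 to 498), with an adjusted p of 0.0799 in the same edgeR test. In both, 1 read in mouse 17 was all that was seen in young cortex.

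Tas2r126 (proximal array, octamer promoter above) had the highest mean TPM of the Tas2r genes, with 1, 1 and 4 counts in young mice and 7, 6 and 3 in old mice. Mouse 17 and mouse 5 overlapped, and the log2 fold change was 1.32 (SE 0.70, adjusted p = 0.224 with edgeR's quasi-likelihood test). Tas2r120, the first gene of the distal array, had 1, 1 and 2 counts against 6, 8 and 0, so that 1 old mouse had fewer counts than any young one (1.68, SE 1.00, edgeR adjusted p = 0.275). Tas2r142-ps5, a pseudogene of the distal array, had 0, 0 and 2 counts against 6, 3 and 4 without overlap (2.46, SE 0.97, edgeR adjusted p = 0.124). Tas2r137, whose promoter is shown above and which was singled out after its values were seen, had 0, 1 and 0 counts against 3, 3 and 3.

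**Figure D2:**
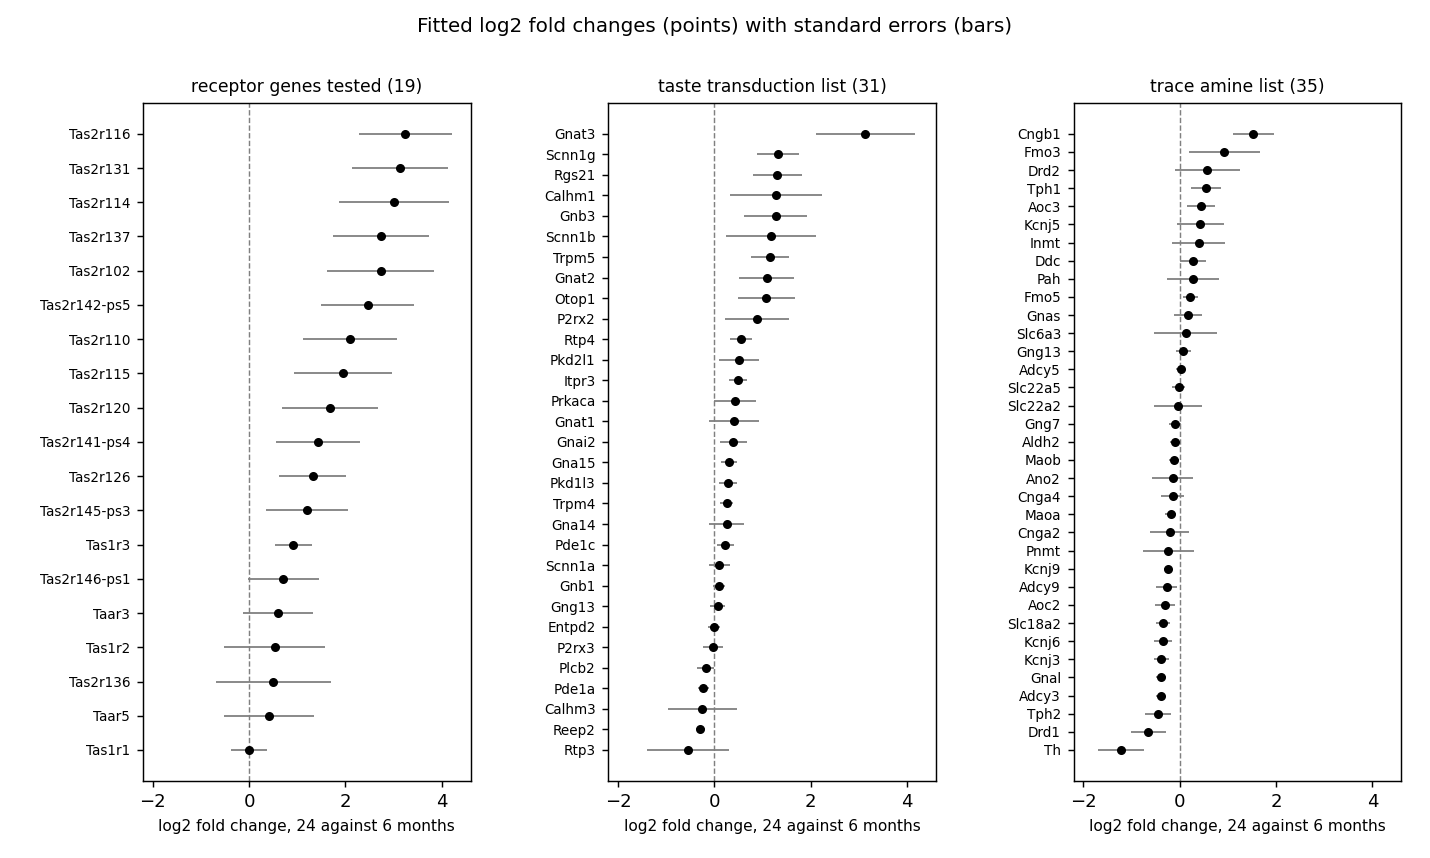
Log2 fold changes (24 against 6 months, edgeR's quasi-likelihood fit) as points with standard errors as bars, for 19 of the 20 tested receptor genes (Tas2r139, with 0 counts at 6 months, is left out), the 31 taste transduction genes and 35 of the trace amine genes. Only Tas1r1 among the receptor genes is not above 0, a sign that turns with library totals, and 18 of the 20 could be tested only because of their counts at 24 months.

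The difference was present in each Tas2r array. The proximal array had 3, 5 and 7 counts in young mice and 25, 24 and 18 in old mice, a ratio of levels of 4.37 (2.45 to 8.17). In the middle array the counts were 3, 1 and 1 against 13, 15 and 7, with a ratio of 6.63 (2.65 to 22.2). The distal array, with 7, 12 and 28 counts against 57, 64 and 50, had a ratio of 3.55 (2.54 to 4.99). In all 3 arrays the old mice were above the young ones, and the 3 counting intervals overlapped.

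Pseudogenes, which encode no receptor, showed the same order as the protein-coding members. The 5 Tas2r pseudogenes had 2, 2 and 9 counts in young mice and 15, 13 and 13 in old mice, a ratio of 3.07 (1.61 to 6.23). For the 35 protein-coding Tas2r genes the counts were 12, 17 and 27 against 84, 98 and 64, a ratio of 4.28 (3.18 to 5.81). The 10 genes of other names that lie among the distal Tas2r genes, all pseudogenes or unverified transcripts, had 1, 1 and 3 counts against 8, 9 and 9 in sum. Their level was 0.00925 ± 0.00639 CPM per exonic kb in young mice and 0.0466 ± 0.00170 in old mice (SD, n = 3 each). The Tas2r genes around them were at 0.0214 ± 0.0150 and 0.0760 ± 0.00890, overlapping them in young mice and above them in all old mice.

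**Figure D3:**
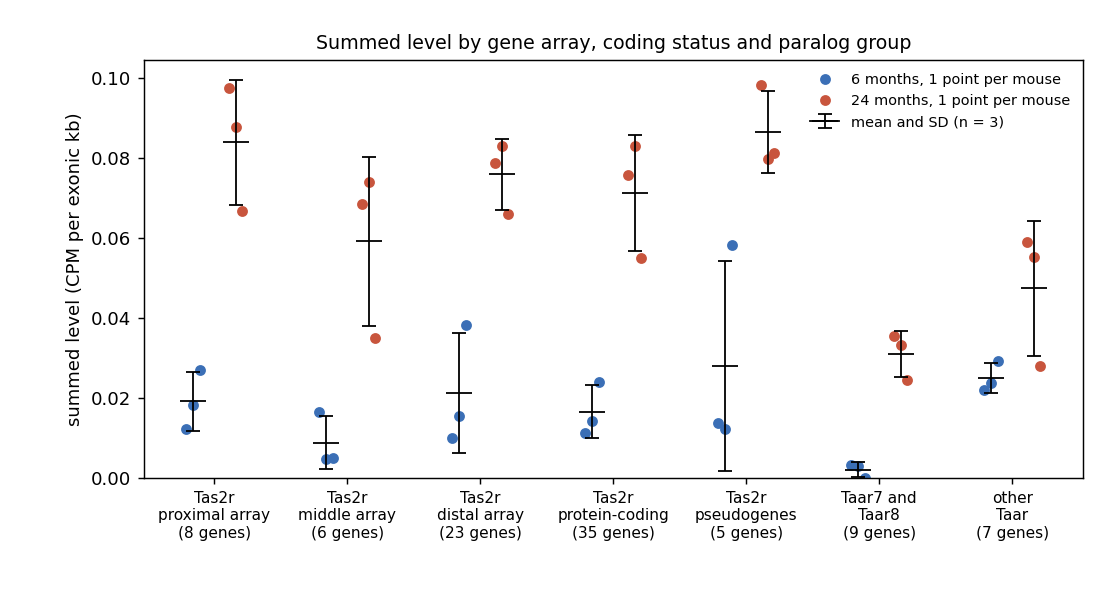
Summed level (CPM per exonic kb) of Tas2r genes by array and coding status and of Taar genes by paralog group, with 1 point per mouse and the mean and SD of 3 mice per age. The 24-month points lie above the 6-month points in each Tas2r set, and at 24 months the pseudogenes (0.0799 to 0.0983) overlap the protein-coding genes (0.0551 to 0.0830).

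The Taar genes were the lowest of the 3 families. Summed over 16 genes, the counts were 6, 7 and 7 in young mice and 25, 25 and 15 in old mice. The level was 0.0121 ± 0.000570 CPM per exonic kb in young mice and 0.0383 ± 0.0106 in old mice (SD, n = 3 each), a ratio of 3.16 (1.89 to 5.50), with mouse 5 again the lowest of the old mice. Taar1, the member known for a role in the brain (chr10:23920356-23921469, plus strand), had 0, 1 and 0 counts in young mice and 3, 1 and 1 in old mice. The ages overlapped, the counting interval of its ratio ran from 0.543 to 230, and with 6 counts in all it was not tested.

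The 2 tested Taar genes, both receptors of olfactory neurons, showed little separation. Taar3 had 1, 1 and 3 counts against 3, 3 and 2 (log2 fold change 0.60, SE 0.73, adjusted p = 0.602 with edgeR's quasi-likelihood test). Taar5, a receptor for trimethylamine, had 2, 0 and 3 counts against 2, 4 and 1 (0.41, SE 0.94, edgeR adjusted p = 0.790), and its sign turned (-0.14) without the 6-month mouse 11. Both genes overlapped between the ages. Taar2 had 0, 3 and 1 counts against 1, 4 and 0. Taar9 had 1, 1 and 0 against 3, 1 and 2, and Taar8b 0, 1 and 0 against 2, 1 and 2. The ages overlapped in Taar2, Taar9 and Taar8b as well, and these genes had too few counts to be tested.

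The separation of the summed Taar level was wider in the duplicated Taar7 and Taar8 genes than in the others, a difference that was not tested. These 9 genes had 1, 1 and 0 counts in young mice and 11, 11 and 8 in old mice, a ratio of 14.5 (3.69 to 126). The other 7 had 5, 6 and 7 counts against 14, 14 and 7, a ratio of 1.90 (1.04 to 3.54), and the levels of mouse 17 (0.0293 CPM per exonic kb) and mouse 5 (0.0282) overlapped. The 2 genes of other names within the Taar array, both pseudogenes, had 3, 3 and 3 counts against 3, 5 and 4, a ratio of 1.29 (0.500 to 3.48), and their ages overlapped.

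The Taar7 and Taar8 counts are the least certain of the family. Transcripts of the 5 full-length Taar7 genes are 91.7% to 95.4% identical and those of the 3 Taar8 genes 96.6% to 98.1%. Of all stretches of 69 bases, the read length after the stated clipping, 20.4% to 43.9% in a Taar7 gene and 43.7% to 64.6% in a Taar8 gene occur exactly in another member. The highest share in a Tas2r gene was 5.57%, in Tas2r110 and Tas2r123. A read from such a stretch cannot be assigned to 1 gene, and the stated counting options both divide reads with several positions and set a minimum mapping quality that STAR gives only to reads with a unique position. The sequences below (GENCODE vM21 transcripts, GRCm38) show bases 688 to 756, identical in all 5 Taar7 genes, and then bases 1 to 69 of each gene, where capitals mark the 31 positions that differ among the 5. For Taar7a, on the minus strand, bases 1 to 69 lie at chr10:23993413-23993481, and for the plus-strand genes at chr10:23999939-24000007 (Taar7b), chr10:24027222-24027290 (Taar7d), chr10:24037614-24037682 (Taar7e) and chr10:24049510-24049578 (Taar7f).
Taar7, shared: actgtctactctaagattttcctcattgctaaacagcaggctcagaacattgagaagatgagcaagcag
Taar7a: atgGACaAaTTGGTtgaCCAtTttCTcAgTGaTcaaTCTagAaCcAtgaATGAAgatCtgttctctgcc
Taar7b: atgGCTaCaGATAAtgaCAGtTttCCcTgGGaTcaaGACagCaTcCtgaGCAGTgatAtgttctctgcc
Taar7d: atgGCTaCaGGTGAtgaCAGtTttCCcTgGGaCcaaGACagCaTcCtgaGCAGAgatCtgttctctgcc
Taar7e: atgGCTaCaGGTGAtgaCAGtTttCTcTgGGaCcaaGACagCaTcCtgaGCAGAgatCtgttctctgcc
Taar7f: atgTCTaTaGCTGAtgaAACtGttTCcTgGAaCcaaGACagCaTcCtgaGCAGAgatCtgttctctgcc

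Set beside the other chemosensory receptor families, the 3 families kept 1 order of levels at both ages. At 6 months the summed level was 0.0821 CPM per exonic kb for Tas1r, 0.0181 for Tas2r and 0.0121 for Taar, and Tas2r (0.0117 to 0.0283 over mice) overlapped Taar (0.0115 to 0.0127). At 24 months it was 0.110, 0.0732 and 0.0383, and the ranges over mice of the 3 families did not overlap. The olfactory receptor genes (1413 Olfr) were at 0.0248 ± 0.00109 and 0.0739 ± 0.0172 CPM per exonic kb, a ratio of 2.98. The vomeronasal receptor genes were at 0.0157 ± 0.00173 and 0.0574 ± 0.0152 (234 Vmn1r, ratio 3.64) and at 0.0257 ± 0.00247 and 0.0660 ± 0.0134 (125 Vmn2r, ratio 2.57) (SD, n = 3 each). The Tas2r level at 24 months (0.0583 to 0.0826 over mice) lay within the range of the olfactory receptor genes (0.0560 to 0.0904). The 24-month mouse 5 had the lowest level of the old mice in Tas2r, Taar, Olfr, Vmn1r and Vmn2r alike, but not in Tas1r.

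**Figure D4:**
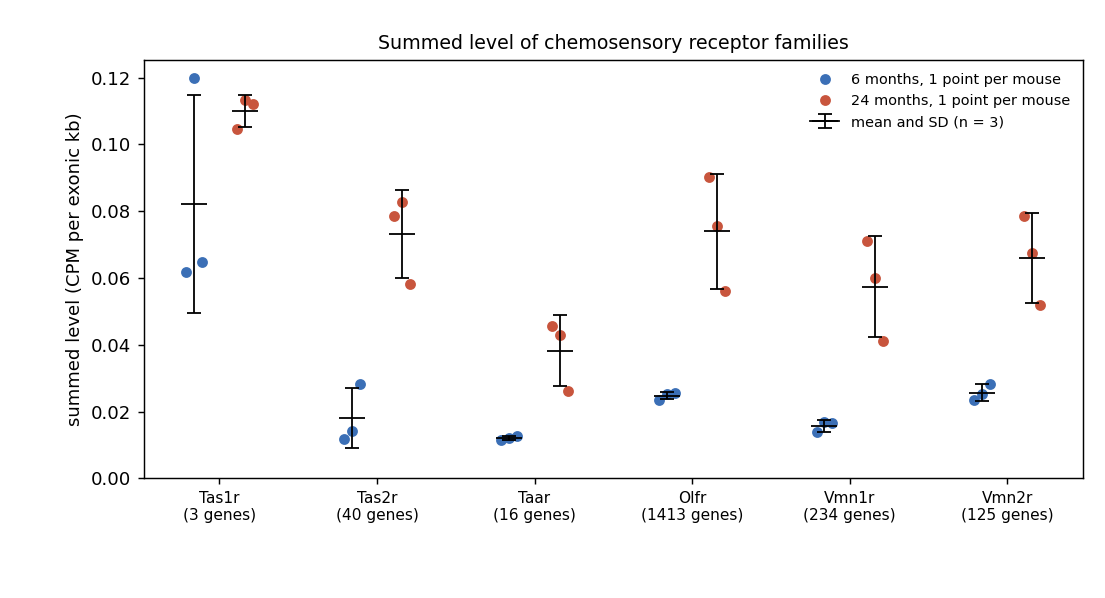
Summed level (CPM per exonic kb) of 6 chemosensory receptor families, with 1 point per mouse and the mean and SD of 3 mice per age. The ages are separated in each family but Tas1r, where the 6-month mouse 11 (0.120) is above all 24-month mice.

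Downstream of the taste receptors, a list of 31 transduction genes was fully tested. With edgeR's quasi-likelihood test 0 passed the 1% FDR, and 6 were higher and 1 lower at an unadjusted p under 0.05 (17.6% and 13.1% of all genes tested). The median log2 fold change was 0.40 against 0.15 over all genes. Of the 6 higher, Gnat3, Trpm5, Scnn1g and Rgs21 had 10 to 100 counts in total. In that class 31.3% of genes were higher and 0.302% lower at that p, with a median log2 fold change of 1.05. At 1% FDR the likelihood ratio and exact tests of edgeR and DESeq2 also placed 0 of them. The shares of all genes higher there were 4.41%, 2.84% and 0.579%. The genes of taste cells had few counts. Gnat3, the alpha subunit of gustducin, had 1, 0 and 0 counts in young mice and 5, 5 and 2 in old mice (log2 fold change 3.13, SE 1.02, edgeR adjusted p = 0.0845). Trpm5, the cation channel at the end of the cascade, had 6, 9 and 8 counts against 20, 22 and 11 (1.15, SE 0.39, edgeR adjusted p = 0.0899). All 3 old mice were above the young ones for both, and Gnat3 entered the test only through its counts at 24 months.

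Among the other genes of the list, Plcb2 and Itpr3 had more counts than Gnat3 and Trpm5. Plcb2, the phospholipase C of the cascade, had 130, 163 and 125 counts against 101, 133 and 147, with overlap (-0.18, SE 0.18, edgeR adjusted p = 0.516), and its sign turned (0.01) with library totals. Itpr3, the inositol trisphosphate receptor, had 52, 64 and 57 against 66, 93 and 92 (0.49, SE 0.19, edgeR adjusted p = 0.122). The salt taste channel subunit Scnn1g (1.32, SE 0.44, edgeR adjusted p = 0.0869) and the G protein regulator Rgs21 (1.31, SE 0.51, edgeR adjusted p = 0.120) had 2 to 13 counts and did not overlap between the ages. In the other direction, Reep2, which promotes cell surface transport of receptors, had 4275, 4605 and 4109 counts against 3574, 3590 and 3786 (-0.29, SE 0.09, edgeR adjusted p = 0.0721).

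The list of 36 genes for trace amine synthesis, breakdown, signaling and partner receptors was also fully tested. With edgeR's quasi-likelihood test 0 passed the 1% FDR, 1 was higher and 7 were lower at an unadjusted p under 0.05, where 17.6% of all genes tested were higher and 13.1% lower, and the median log2 fold change was -0.11 against 0.15 over all genes. The other tests placed 0 of them at 1% FDR as well, with the shares of all genes as given for the taste transduction list. Among the genes through which olfactory Taar receptors signal, 2 were lower and 1 higher in every old mouse than in every young mouse. Of all genes tested, 16.3% were lower and 20% higher in this way. Adcy3, their adenylyl cyclase, had 35.2 ± 2.04 CPM in young mice and 26.8 ± 0.234 CPM in old mice (SD, n = 3 each; log2 fold change -0.40, SE 0.10, edgeR adjusted p = 0.0559). Gnal, the olfactory G protein alpha subunit, had 160 ± 5.60 CPM and 123 ± 14.3 CPM (-0.38, SE 0.10, edgeR adjusted p = 0.0615). Cngb1, a subunit of the cyclic nucleotide-gated channel, had 5, 5 and 11 counts against 27, 22 and 14, the 1 gene of the list that was higher at an unadjusted p under 0.05 (1.53, SE 0.43, edgeR adjusted p = 0.0654). Gnas, the stimulatory G protein used by TAAR1, overlapped widely (0.17, SE 0.30, edgeR adjusted p = 0.713) and turned sign (-0.15) without the 6-month mouse 10.

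Among the enzymes, Ddc, which makes trace amines from amino acids, had 104, 170 and 107 counts against 95, 208 and 175 (0.28, SE 0.27, edgeR adjusted p = 0.491). The amine-degrading Maoa (-0.19, SE 0.11, edgeR adjusted p = 0.267) and Maob (-0.11, SE 0.10, edgeR adjusted p = 0.447) had small negative values, and both were slightly above 0 with library totals. Th, the first enzyme of catecholamine synthesis, had 105, 275 and 90 counts against 25, 102 and 80, with overlap (-1.22, SE 0.48, edgeR adjusted p = 0.125). Kcnj9, a potassium channel subunit that Gi-coupled receptors open, had 3864, 4336 and 3854 counts against 3478, 3487 and 3480 (-0.25, SE 0.09, edgeR adjusted p = 0.0920). Drd2, a dopamine receptor known as a partner of TAAR1, had 1, 12 and 4 counts against 10, 12 and 4 (0.57, SE 0.68, edgeR adjusted p = 0.589).

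Markers of the cells that normally use these receptors were measured beside them. The 8 cortical neuron markers were abundant, with 4432 to 5069 TPM in sum at 6 months and 3576 to 4489 at 24 months, and 4 of them were lower at 24 months at an unadjusted p under 0.05 (13.1% of all genes tested). The 8 taste receptor cell markers summed to 11.7 to 12.8 TPM at 6 months and 14.4 to 15.4 at 24 months, and 4 were higher at that p (17.6% of all genes tested and 31.3% of those with 10 to 100 counts). Entpd2, an ATP-degrading enzyme, made up 10.3 to 11.5 and 11.0 to 12.2 TPM of these sums, and the other 7 markers 1.27 to 1.42 and 2.35 to 3.55 TPM. In young cortex 2 of these, Gnat3 (1, 0 and 0 counts) and Krt8 (0, 0 and 1), were at or near 0, and Krt8 had 9, 10 and 3 counts at 24 months (edgeR adjusted p = 0.0557). Both passed the minimum of 10 counts only through the old mice, so their direction is not independent of the filter. The 9 olfactory sensory neuron markers overlapped, with 155 to 202 TPM and 165 to 193 TPM in sum, 1 higher and 2 lower at that p. Most of these sums came from Gng13 (mean 104 TPM at 6 months and 118 at 24 months), Gnal (50.4 and 41.8) and Adcy3 (19.8 and 16.3). The mean of Omp was 0.462 and 0.569 TPM. The 1 higher, Stoml3, had 2 counts in the young mice together and also passed the filter only through the old mice. Omp, which defines mature olfactory neurons, had 4, 13 and 11 counts against 18, 9 and 5. The 5 choroid plexus markers (42.0 to 119 and 54.3 to 123 TPM) and the 5 testis germ cell markers (5.30 to 8.28 and 5.13 to 7.76 TPM, 3 tested) overlapped too, with 0 past an unadjusted p of 0.05 in edgeR's quasi-likelihood test. Of the latter, the spermatid genes Prm2 and Tnp1 had 0 to 3 counts per library and were not tested. The part of other cell types in the receptor counts was not tested.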

How the data were processed

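The authors trimmed the reads with Trim Galore 0.6.4, mapped them to GRCm38 with STAR 2.7.3a and assigned them to exons with featureCounts (Subread 2.0.0), as the paper and the submitters' processing notes state, and quality was assessed with FastQC 0.11.8. They deposited, per mouse, the counts of 55421 genes and a TPM value for each. All deposited counts were whole numbers and were used as they are. The stated options divide reads with several positions, but their minimum mapping quality keeps only reads to which STAR gave a unique position. The deposited TPM values rest on these counts and exonic lengths.

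Counts of all genes were analysed with edgeR 4.0.16 (R 4.3.3) using genes of 10 or more counts summed over all 6 mice, TMM scaling, the quasi-likelihood test without covariates and Benjamini-Hochberg adjustment over the 32905 genes tested. The fit was tested on simulated data. Levels of gene groups are TMM-scaled CPM per exonic kb of GENCODE vM21. Ratio intervals are exact binomial (95%) on pooled counts, and 3 counts was the floor for a gene at 0. Alternatives used DESeq2 1.42.0, the other edgeR tests, other scalings and filters, and each mouse left out. Python 3.11.15, pandas 2.3.3 and scipy 1.17.1 were used for the other computations.

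Receptor genes, the taste transduction list, the trace amine list and the marker lists (taste receptor cell, olfactory sensory neuron, cortical neuron, choroid plexus, testis germ cell) were chosen with earlier results of these data known. Named genes were the Tas1r genes, Taar1, the 5 highest by mean TPM and the 3 of smallest p in Tas2r and in Taar, members with a negative fitted value, members at 0, and in the 2 lists the 6 of smallest p and some fixed by role. The mice of an age are separate animals. Replicates share no numbers between ages. The values of 1 gene of the trace amine list are not reported here.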

Additional observations from a re-analysis of the deposited data

How the results depend on the processing

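At 1% FDR the count of 0 receptor genes became 1 with the likelihood ratio test and 1 with the exact test of edgeR, in both cases Tas2r139. It was 0 with every mouse left out and with the other scalings, filters and DESeq2. In the main fit 0 of all 32905 genes passed, filterByExpr left 2 members to test, and DESeq2 gave no adjusted p for 18 of 20. These counts of 0 thus say little about the receptor genes. The 8 receptor genes higher at an unadjusted p under 0.05 became 1 under the filterByExpr filter, which leaves fewer members to test, and 4 with DESeq2. They were 2 to 7 with 1 mouse left out, when 10 to 20 members were tested. The 8 tested genes above all young mice became 13 with library totals and 15 with no filter, when 58 members were tested. They were 3 to 11 with 1 mouse left out, when fewer mice have to keep the order. For both kinds of count, the shares of all genes under these alternatives are not given here. Neither set of moves can be read as particular to the receptor genes. The Taar ratio of 3.16 became 1.90 without Taar7 and Taar8 (added after seeing the data), while the Tas2r ratio was 4.28 for protein-coding genes and 3.07 for pseudogenes. Leaving out Tas1r2 and Tas1r3, whose exons overlap another gene, brought the Tas1r ratio from 1.34 to 1.01, which is the ratio of Tas1r1 alone. The overlap of Tas1r3 is only 36 bases, and the part of overlapping reads in this change was not tested.

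The sign of some genes turned. Tas1r1 (-0.00) was 0.0025 with DESeq2 size factors, 0.18 with library totals, 0.11 with filterByExpr, 0.034 with no filter, 0.0059 with DESeq2 and -0.20 to 0.40 with 1 mouse left out. With 1 mouse left out, Tas1r2 was -0.022 to 0.56 (not tested without mouse 11, which holds its 6 young counts, since 9 counts remain), Taar5 -0.14 to 0.77 and Gnas -0.15 to 0.49. With library totals Plcb2 was 0.011, Maoa 0.00099 and Maob 0.080, and with filterByExpr Maob was 0.00098. The cause was not tested. Library totals move the median log2 fold change of all genes from 0.15 to 0.34. The 2 downstream lists had 0 genes at 1% FDR in all alternatives run, and in the main fit 0 of all genes tested passed. Counts of 0 to 23 limit any single receptor gene. No paired analysis was possible because the ages share no mouse numbers.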
